A study of Mus musculus with 48 samples.

Results

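The Fc receptor genes described here are Fcer1g, Fcgr1, Fcgr2b, Fcgr3 and Fcgr4, 5 of the 48709 genes in the count files, found by matching mouse gene symbols to the Ensembl identifiers of the files. RNA-sequencing counted the reads falling on each gene in 48 runs from 46 mice, all of strain C57BL/6J. The Fmn2 line held dentate gyrus of Fmn2+/+ and Fmn2-/- mice, a knockout of the actin-nucleating protein formin 2, at 3 months (5 and 5 mice) and at 8 months (3 and 5 mice). The cross of Fmn2-/- with amyloid mice held dentate gyrus at 3 months from 7 mice labelled FMN2-/-_APP and 9 mice labelled FMN2 +/+ APP. A further 6 mice labelled APP and 6 labelled wild type, at 4 months, carry PFC in their titles and dentate gyrus in their tissue label. The amyloid line of the study is APPPS1-21, in which the neuronal Thy1 promoter drives human mutant APP, so the transgene is expressed in neurons.

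Fc receptors bind the constant part of antibodies. In the brain they are carried mainly by microglia and macrophages, where antibody-coated material crosslinks them and starts phagocytosis and release of signals. The activating receptors Fcgr1, Fcgr3 and Fcgr4 need the common gamma chain, the product of Fcer1g, whose activation motif is phosphorylated by Src family kinases and recruits Syk. Fcgr2b carries an inhibitory motif in its own tail that recruits the phosphatase encoded by Inpp5d, and so sets the threshold of the activating receptors.

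Of the 5 genes, 4 lie on chromosome 1 and within 3.53 Mb of Fmn2, the targeted gene. In mm10 these are Fcgr2b (chr1:170958617-170976547, minus strand), Fcgr4 (chr1:171018920-171029761, plus strand), Fcgr3 (chr1:171051174-171064935, minus strand) and Fcer1g (chr1:171229572-171234365, minus strand), while Fmn2 starts at 174501825. Fcgr1 (chr3:96282909-96293969, minus strand) lies on chromosome 3. All are protein-coding. The promoters of the 5 genes are shown because the genes moved together in the amyloid samples described next, each from 100 bases before to 50 bases after the RefSeq start (GRCm38.p6), 5′ to 3′ on the strand of the gene. Capitals mark GAGGAA or its reverse complement TTCCTC, a sequence bound by PU.1, a transcription factor of myeloid cells.
Fcgr1 (chr3:96293920-96294069, minus strand): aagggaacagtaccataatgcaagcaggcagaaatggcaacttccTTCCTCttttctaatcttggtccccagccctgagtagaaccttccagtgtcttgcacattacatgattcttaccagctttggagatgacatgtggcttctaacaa
Fcgr3 (chr1:171059345-171059494, minus strand): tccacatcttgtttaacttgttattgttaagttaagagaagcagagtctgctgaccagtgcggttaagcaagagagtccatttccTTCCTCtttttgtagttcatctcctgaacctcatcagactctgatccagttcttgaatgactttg
Fcgr4 (chr1:171018826-171018975, plus strand): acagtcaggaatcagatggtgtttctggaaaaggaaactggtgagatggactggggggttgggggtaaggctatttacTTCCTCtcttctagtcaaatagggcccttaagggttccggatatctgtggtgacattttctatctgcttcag
Fcer1g (chr1:171234300-171234449, minus strand): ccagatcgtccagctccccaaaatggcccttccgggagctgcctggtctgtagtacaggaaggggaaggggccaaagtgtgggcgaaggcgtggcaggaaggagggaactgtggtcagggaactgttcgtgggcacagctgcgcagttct
Fcgr2b (chr1:170976022-170976171, minus strand): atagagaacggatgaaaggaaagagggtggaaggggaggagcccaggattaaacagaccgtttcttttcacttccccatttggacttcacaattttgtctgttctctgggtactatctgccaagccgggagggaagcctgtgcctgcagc
The 3 activating receptors each held 1 match, in the orientation TTCCTC, beginning 55 bases before the start in Fcgr1, 15 in Fcgr3 and 22 in Fcgr4. Fcgr3 has another RefSeq start, whose window is not printed, with the match beginning 6 bases before it. Neither Fcer1g nor Fcgr2b held these letters in either direction in this window. Shorter or other forms of the PU.1 site were not searched for. Over 32851 RefSeq promoters, 15.7% held the motif in the same window of 150 bases.

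Between 6818809 and 43921030 reads per mouse fell on genes. In the Fmn2 line the Fmn2 count followed the labels, with log2 fold changes of -2.06 (SE 0.074) at 3 months and -1.89 (SE 0.11) at 8 months. In the cross it went against them: the mice labelled FMN2-/-_APP had 83.3 to 101.8 CPM (reads of a gene scaled to the size of its library) of Fmn2 and those labelled FMN2 +/+ APP 18.9 to 23.4, so the cross groups are named by label throughout. Thy1, the gene whose promoter drives the transgene, lay between 769 and 880 CPM in the 3-month mice without amyloid. In 3 of the 16 cross mice (labelled FMN2-/-_APP replicates 1 and 7, labelled FMN2 +/+ APP replicate 4) it lay within that range, against 933 to 1885 CPM in the other cross mice. The samples titled PFC held 169 to 216 CPM summed over 8 dentate granule cell genes, against 745 to 1406 in the other groups, so they are called by their titles. Of the 13 microglia identity genes all were tested in each comparison, and they summed to between 324 and 756 CPM in every mouse.

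The 5 genes differed widely in level. Per kilobase of exon, the mean level over the 3-month Fmn2+/+ mice was 8.79 CPM for Fcer1g, 5.24 for Fcgr3, 1.25 for Fcgr1, 0.855 for Fcgr2b and 0.0533 for Fcgr4, and Fcer1g, the shared signalling chain, had the highest level per kilobase in all 8 groups. The titled APP mice stood first in the order of groups for each gene. For Fcer1g and Fcgr2b their range lay above that of the next group, and for Fcgr1, Fcgr3 and Fcgr4 it overlapped the next group. All other neighbours in the order of groups overlapped in range for every gene. Fcgr4 had 259 reads over all 46 mice and at most 21 in any one of them, and 4 mice had 0 reads, which allows up to 3 reads, or 0.0913 to 0.317 CPM in these mice, by counting error alone.

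**Figure D1:**
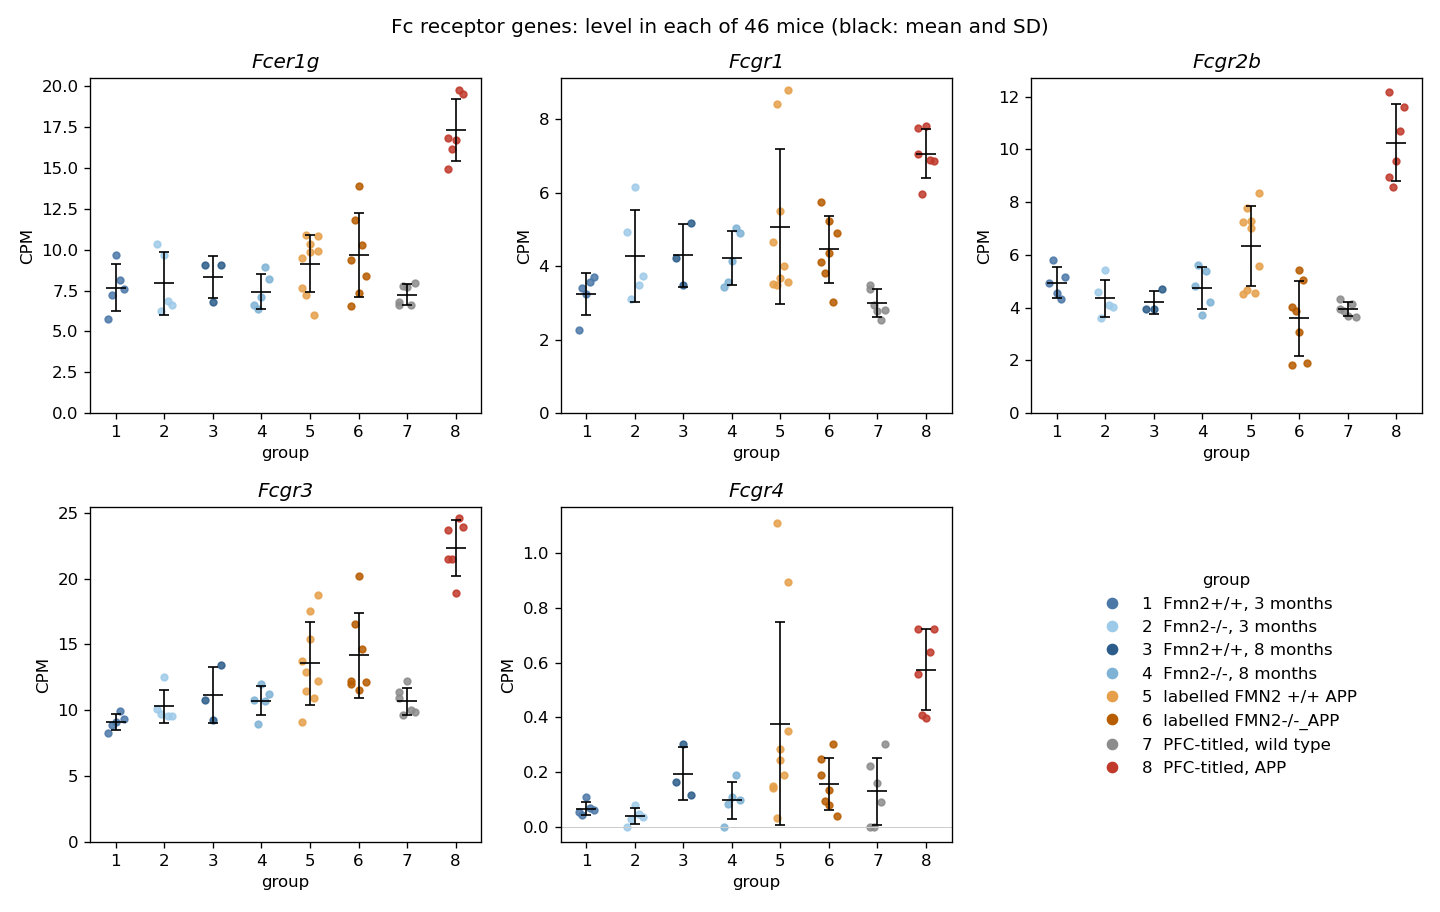
Level of each Fc receptor gene (y axis, CPM with TMM normalization over all mice, linear scale from 0) in the 46 mice of the 8 groups (x axis, numbered as in the key), with mean and SD in black. The titled APP mice (group 8) have the highest mean for each gene, and the lowest Fcgr2b values belong to mice labelled FMN2-/-_APP (group 6).

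The first comparison asks how amyloid changes the receptors in the samples titled PFC. The signalling chain, 2 activating receptors and the inhibitory receptor were all higher in APP than in wild-type mice, by 2.10 to 2.62 times. Fcer1g lay between 6.62 and 7.96 CPM in the 6 wild-type mice (median 7.25) and between 14.96 and 19.8 in the 6 APP mice (median 16.8). Fcgr1, the high-affinity receptor for monomeric IgG, lay between 2.53 and 3.49 CPM (median 2.86) and between 5.98 and 7.80 (median 6.97). Fcgr3, a low-affinity activating receptor, lay between 9.61 and 12.2 CPM (median 10.5) and between 18.9 and 24.6 (median 22.6). No APP mouse overlapped a wild-type mouse in any of these. Fcgr2b, the inhibitory receptor, lay between 3.65 and 4.32 CPM (median 3.92) and between 8.59 and 12.2 (median 10.1), again without overlap.

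In this comparison 4 of the 5 genes passed both thresholds of a call, an adjusted p under 0.05 and a log2 fold change of 0.5 or more in size, where 2.34% of the 16733 genes tested were called. The log2 fold changes were 1.27 for Fcer1g (SE 0.087, adjusted p = 2.03e-08), 1.25 for Fcgr1 (SE 0.10, adjusted p = 2.17e-07), 1.39 for Fcgr2b (SE 0.10, adjusted p = 5.1e-08) and 1.07 for Fcgr3 (SE 0.079, adjusted p = 4.76e-08), all from edgeR's quasi-likelihood test. The 95% interval for the inhibitory Fcgr2b, 1.19 to 1.59, overlapped those for the activating Fcgr1 (1.05 to 1.46) and Fcgr3 (0.92 to 1.23), and differences between genes were not tested. Fcgr4, an activating receptor of myeloid cells, was under the filter on low counts. It had 10 to 20 reads in each APP mouse (median 0.598 CPM) and 0 to 5 in each wild-type mouse (median 0.125 CPM). The groups did not overlap, and the difference of the means was 0.446 CPM (exact permutation test, two-sided p = 0.00216, the smallest that 924 arrangements of 6 and 6 mice can give). For all 5 genes every APP mouse lay above every wild-type mouse, where 3.36% of the genes tested had groups that did not overlap in either direction. All APP mice were sequenced on lane 7 and all wild-type mice on lane 5, so lane and genotype cannot be told apart here.

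**Figure D2:**
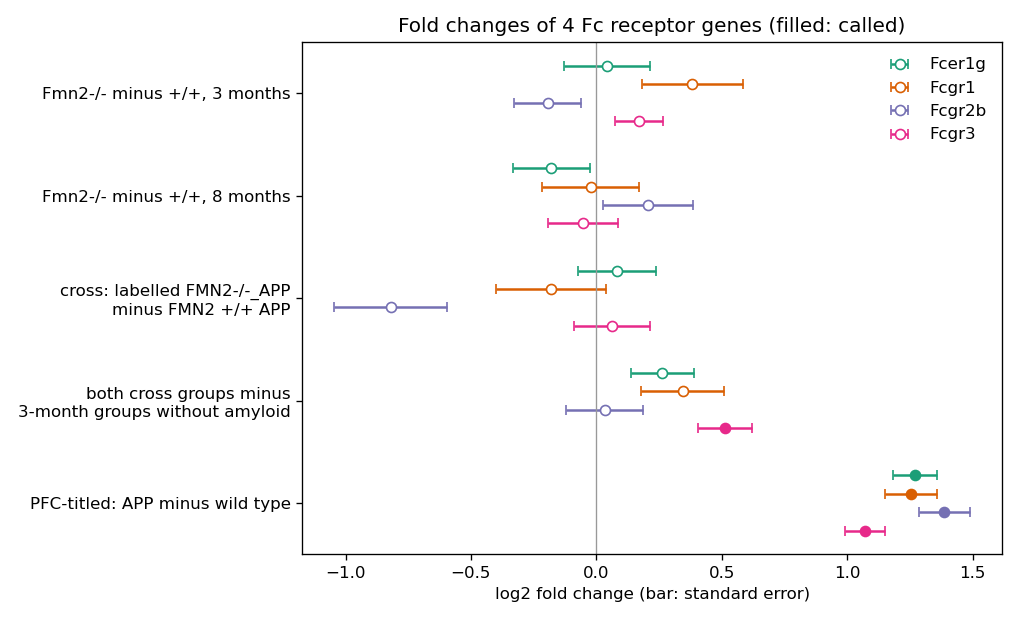
Log2 fold change (x axis) with its standard error for Fcer1g, Fcgr1, Fcgr2b and Fcgr3 in 5 comparisons (y axis), with filled points for genes called by the thresholds of that comparison. The 4 genes lie between 1.07 and 1.39 in the titled APP mice, and Fcgr2b lies at -0.82 between the labelled groups of the cross.

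The genes around the receptors in the pathway rose with them in the titled APP mice. Of 21 genes signalling below Fc receptors, all tested, 14 rose and 0 fell, with a median log2 fold change of 0.72 against 0.00 over all genes. Tyrobp, a second activation-motif adaptor of microglia, rose by 2.29 (adjusted p = 9.7e-12), the Src family kinase Fgr by 2.35 (adjusted p = 5.71e-05), the inhibitory phosphatase Ptpn6 by 1.31 (adjusted p = 1.96e-07) and the linker Lat2 by 1.03 (adjusted p = 9.52e-05). Syk itself had a log2 fold change of 0.20 (adjusted p = 0.404) and Inpp5d, the phosphatase recruited by Fcgr2b, rose by 0.63 (adjusted p = 0.00012). Of 12 other Fc receptors and relatives 6 were tested, and only Fcrls, an Fc receptor-like scavenger receptor of microglia, was called, at 1.22 (adjusted p = 5.25e-09). The neonatal Fc receptor Fcgrt, which carries IgG across cells, had a log2 fold change of 0.07 (adjusted p = 0.823).

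Microglial genes in general were higher in these APP mice too. Of 13 microglia identity genes 11 rose and 0 fell (median 0.75), of 15 plaque-associated genes 14 were tested and 11 rose (median 1.04), and of 12 complement and phagocytic partner genes 11 were tested and 10 rose (median 1.28). The identity genes Olfml3 (1.18) and Gpr34 (1.04), the plaque-associated genes Cst7 (7.81) and Clec7a (6.61), and Cybb (2.00), the oxidase subunit of phagocytes, were among those that rose. In bulk tissue a larger share of microglia and more RNA per microglial cell cannot be told apart. The microglia identity genes summed to 374 to 413 CPM in wild-type mice and 582 to 756 in APP mice. Per 1000 CPM of that sum, Fcer1g was 18.8 ± 1.43 (SD, n = 6) in wild-type and 26.1 ± 0.924 (SD, n = 6) in APP mice, and Fcgr2b 10.2 ± 0.875 (SD, n = 6) and 15.5 ± 1.77 (SD, n = 6), both without overlap. Fcgr1 was 7.74 ± 1.03 (SD, n = 6) and 10.7 ± 1.35 (SD, n = 6), and Fcgr3 27.8 ± 3.41 (SD, n = 6) and 33.8 ± 3.47 (SD, n = 6), each with overlapping groups. The exact permutation p-values, two-sided and adjusted over these 4 genes, were 0.00432 for Fcer1g and Fcgr2b, 0.00577 for Fcgr1 and 0.0173 for Fcgr3, in a quantity chosen after the values were seen.

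**Figure D3:**
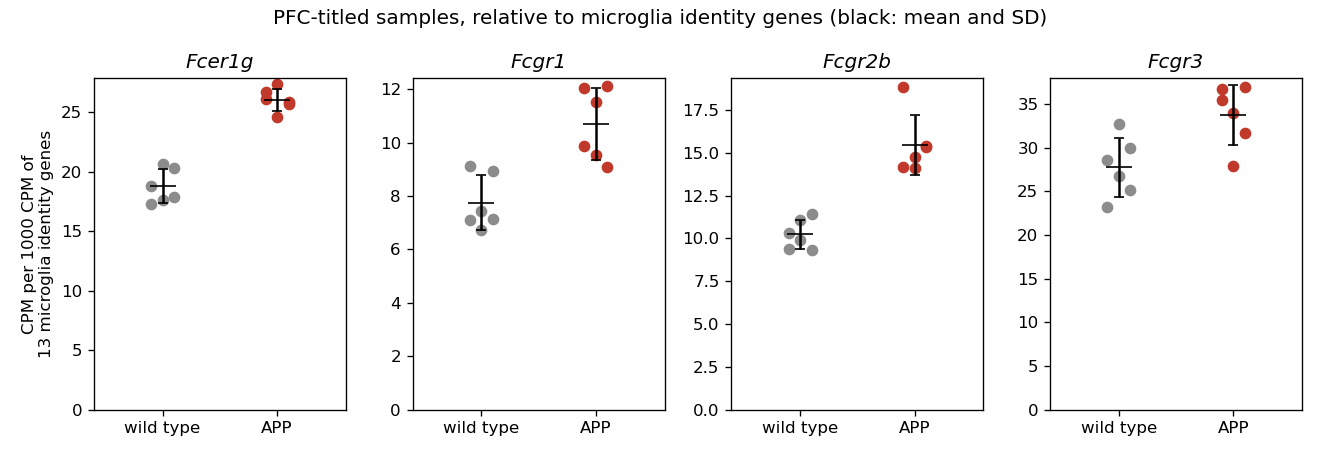
Level of 4 Fc receptor genes per 1000 CPM of the summed microglia identity genes (y axis, from 0) in the 6 wild-type and 6 APP mice titled PFC (x axis), with mean and SD in black. Fcer1g and Fcgr2b separate the groups, with means of 18.8 against 26.1 and of 10.2 against 15.5.

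Markers of other cells that can carry Fc receptors were low in these samples. The 6 border macrophage genes summed to 6.44 to 10.02 CPM in wild-type and 8.43 to 10.97 in APP mice, and of the 5 tested 0 were called (median 0.22). The 11 blood leukocyte genes summed to 0.703 to 2.66 and 0.878 to 1.86 CPM, and none of them passed the filter. Of the other marker lists, 1 of 4 astrocyte genes rose (Gfap, 2.10), 1 of 4 oligodendrocyte genes fell, and 0 of 6 endothelial, 0 of 2 tested choroid plexus, 0 of 6 tested granule cell and 0 of 6 cortical neuron genes were called. Their part in the receptor values was not tested.

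The second comparison sets both amyloid groups of the cross against both 3-month groups without amyloid, all dentate gyrus, and so does not depend on which cross label is right. Amyloid and experiment coincide in it and cannot be told apart. Of the 4 receptor genes that passed the filter on low counts, Fcgr3 rose. It lay between 8.24 and 9.92 CPM in the 5 Fmn2+/+ mice, at 8.24, 9.08, 9.32, 8.91 and 9.92, and at 10.1, 12.5, 9.60, 9.72 and 9.54 in the 5 Fmn2-/- mice. In the mice labelled FMN2 +/+ APP it lay between 9.12 and 18.8 CPM (median 12.9, n = 9) and in those labelled FMN2-/-_APP between 11.5 and 20.2 (median 12.2, n = 7). The amyloid groups reached higher and overlapped the others at their lower end. The log2 fold change was 0.51 (SE 0.11, adjusted p = 0.000298). Of the 4 receptor genes tested 1 was called, where 16.5% of the 17599 genes tested were, so 1 call among 4 is not far from that share.

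That call rested near its threshold. Without 1 of 4 cross mice (labelled FMN2-/-_APP replicate 2 or 4, labelled FMN2 +/+ APP replicate 7 or 8) the log2 fold change of Fcgr3 fell under 0.5, to 0.46, 0.49, 0.49 and 0.49, with adjusted p-values of at most 0.000602. Without the 3 cross mice of low Thy1 it was 0.58 (adjusted p = 0.000156), and Fcer1g was at 0.34 (adjusted p = 0.0187). Leaving them out was decided on after the data were seen. Fcer1g had a log2 fold change of 0.26 (SE 0.13, adjusted p = 0.0853), Fcgr1 of 0.34 (SE 0.17, adjusted p = 0.087) and Fcgr2b of 0.03 (SE 0.15, adjusted p = 0.872). Taken group by group from the same fit, Fcgr3 was called in both cross groups against Fmn2+/+ mice, at 0.63 (adjusted p = 0.00217) for the label FMN2-/-_APP and 0.57 (adjusted p = 0.00389) for FMN2 +/+ APP, where 17.8% and 16.7% of genes were called. Fcgr1 was called in the latter at 0.63 (adjusted p = 0.0348), where replicates 7, 8 and 9 were at 5.51, 8.78 and 8.40 CPM and the other 6 mice at 3.47 to 4.67, against 2.27 to 3.70 in Fmn2+/+ mice, all on lane 5. Against Fmn2-/- mice Fcgr3 had log2 fold changes of 0.46 (adjusted p = 0.026) and 0.39 (adjusted p = 0.0459), under the fold threshold, and 0 receptor genes were called in either group, where 11.7% and 10.8% of genes were. These pairs share their control mice.

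Fcgr4 had 0 to 2 reads in each 3-month mouse without amyloid, 1 to 11 in each mouse labelled FMN2-/-_APP and 1 to 21 in each labelled FMN2 +/+ APP. The highest values, 1.11 and 0.895 CPM, belonged to replicates 9 and 8 of the label FMN2 +/+ APP. It was under the filter, and without that filter its log2 fold change was 2.17 (adjusted p = 0.00101) by edgeR and with DESeq2 2.28 (adjusted p = 0.000309).

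The surrounding lists moved in part, in a comparison where 16.5% of all genes tested were called. Of the 21 signalling genes 5 rose and 2 fell (median 0.19 against 0.02 over all genes), led by Tyrobp, which rose by 1.16, and Prkcd, a kinase also expressed by neurons, which fell by 1.19. Of the other relatives Fcrls rose by 2.09 and Fcer2a, the low-affinity IgE receptor, fell by 0.66. Of 13 microglia identity genes 4 rose and 0 fell, of 15 plaque-associated genes 7 rose and 1 fell, and of 12 complement and phagocytic genes 8 rose and 0 fell. Border macrophage genes, which also carry Fc receptors, were 4 of 6 higher, among them F13a1 (0.94) and Lyve1 (0.87), with sums of 7.63 to 32.9 CPM in the cross and 5.28 to 17.99 without amyloid. Of 2 leukocyte genes tested S100a9 rose by 2.73. In the remaining lists 1 of 4 astrocyte and 2 of 8 granule cell genes rose, 1 of 6 endothelial, 3 of 4 oligodendrocyte and 3 of 6 cortical neuron genes fell, and 0 of 5 choroid plexus genes were called. Their part in the receptor values was not tested.

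The amyloid effects of the 2 experiments were then compared in one fit of the 6 groups, chosen after seeing the data. The effect in the samples titled PFC was larger for Fcer1g by 0.998 (SE 0.19, adjusted p = 0.000247), for Fcgr1 by 0.90 (SE 0.25, adjusted p = 0.00755), for Fcgr2b by 1.35 (SE 0.23, adjusted p = 6.04e-05) and for Fcgr3 by 0.55 (SE 0.17, adjusted p = 0.0128), all on the log2 scale. All 4 were called, where 11.1% of 18276 genes were. Fcgr4, which passed the filter in this fit, differed by -0.06 (SE 0.41, adjusted p = 0.934), with an interval of -0.87 to 0.74. Tissue title, age and sequencing lane differ between the experiments and cannot be told apart. Thy1, which tracks the transgene, also differed in this fit, by 0.89 (adjusted p = 0.000332).

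The third comparison is between the 2 labelled groups of the cross, which are both labelled APP and differ in Fmn2 opposite to their labels. Whether the 3 cross mice of low Thy1 carry the transgene was not tested. Fcgr2b had the largest difference of the 4 receptor genes that passed the filter. It lay between 1.82 and 5.43 CPM (median 3.86) in the 7 mice labelled FMN2-/-_APP and between 4.50 and 8.36 (median 7.02) in the 9 labelled FMN2 +/+ APP. Of the former, 5 lay below all of the latter, and 3 of them (replicates 7, 3 and 5, at 1.82, 1.92 and 3.06 CPM) lay below all 39 mice of the other groups, whose lowest was at 3.60. The log2 fold change, FMN2-/-_APP minus FMN2 +/+ APP as labelled, was -0.82 (SE 0.22), and it missed the threshold with edgeR (adjusted p = 0.0696). DESeq2 called it (-0.82, adjusted p = 0.012), and over all 23 alternatives the value ran from -0.95 to -0.71 with adjusted p-values from 0.012 to 0.195. Without replicate 2 of the label FMN2-/-_APP edgeR called it too (-0.95, adjusted p = 0.04). Without the 3 cross mice of low Thy1 edgeR did not call it (-0.77, adjusted p = 0.165).

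Of the other receptor genes, Fcer1g, Fcgr1 and Fcgr3 differed by less than their errors. Fcer1g lay between 6.57 and 13.9 CPM (median 9.35) under the label FMN2-/-_APP and between 5.98 and 10.9 (median 9.86) under FMN2 +/+ APP, a log2 fold change of 0.08 (SE 0.16, adjusted p = 0.847). Fcgr3 differed by 0.06 (SE 0.15, adjusted p = 0.886). Fcgr1 lay between 3.02 and 5.74 CPM (median 4.36) and between 3.47 and 8.78 (median 4.01), and differed by -0.18 (SE 0.22, adjusted p = 0.734). Its values in replicates 7, 8 and 9 of the label FMN2 +/+ APP, 5.51, 8.78 and 8.40, lay above the 6 values on lanes 5 and 6. These 3 mice were on lane 7, with a further run of replicate 7 on lane 4 added in, and with lane in the fit the difference was 0.03 (adjusted p = 0.955). Fcgr4 means differed by -0.222 CPM (exact permutation test, two-sided p = 0.174). Without the filter its log2 fold change was -1.17 (SE 0.55, adjusted p = 0.398) by edgeR and with DESeq2 -1.22 (SE 0.59, adjusted p = 0.271). Of the 5 receptor genes 0 were called by edgeR (1, Fcgr2b, at an unadjusted p under 0.05, and 1 by DESeq2), where 0.774% of the 16656 genes tested were.

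The inhibitory and the activating low-affinity receptor had different ratios in the labelled groups. The Fcgr3 to Fcgr2b read ratio lay between 2.90 and 6.73 (median 3.76) in the mice labelled FMN2-/-_APP and between 1.66 and 2.49 (median 2.18) in those labelled FMN2 +/+ APP, without overlap. In the 39 mice outside the label FMN2-/-_APP it reached at most 3.30, in a wild-type mouse titled PFC, and 5 of the 7 mice with that label exceeded it. The mean log2 ratio differed by 0.96 (exact permutation test, two-sided p = 8.74e-05, the smallest that 11440 arrangements can give), in a quantity chosen after the values were seen. Without the 3 mice of low Thy1 it differed by 0.94 (exact permutation test, two-sided p = 0.000777). The mean of Fcgr2b was also lower under the label FMN2-/-_APP within each lane. Log2 ratios of the means were -0.76 on lane 5 and -0.29 on lane 6. Each of these lanes held 3 mice of each label, and their values overlapped. On lane 7, where 1 mouse carried the label FMN2-/-_APP, the ratio was -2.09. That mouse, replicate 7, had the lowest Fcgr2b level of the group and was 1 of the 3 mice of low Thy1. Replicate 7 of each label was also run on lane 4, and its runs were summed, so the last ratio is not from lane 7 alone. Fcgr2b and Fcgr3 share sequence: 166 of the 50-base stretches of their transcripts occur in both, 9.58% of those of Fcgr3, and reads there are uncertain. Fcgr2b exons also overlap Gm38204 on the other strand by 155 bases, and the library kit does not keep strand, so reads of the overlap cannot be told apart.

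**Figure D4:**
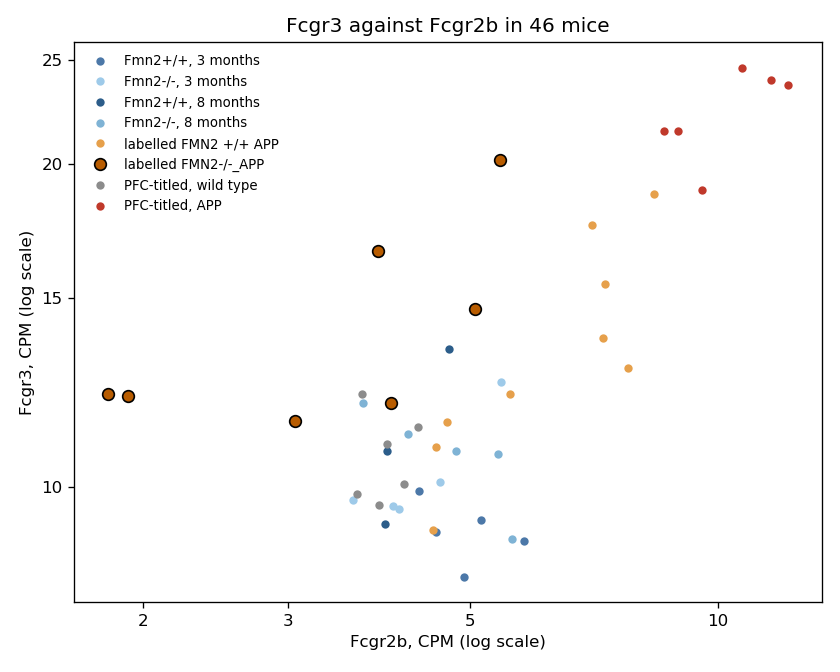
Fcgr3 (y axis) against Fcgr2b (x axis), both in CPM on log scales, for the 46 mice by group. Mice labelled FMN2-/-_APP (outlined) have ratios of 2.90 to 6.73, and 5 of the 7 lie above the highest ratio of the other mice, 3.30.

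In the same comparison the lists around the receptors had few calls. Of 21 signalling genes 0 of 20 tested were called, of the other Fc receptors and relatives 0 of 4, of the microglia identity genes 0 of 13 and of the complement and phagocytic partners 0 of 11. Of 14 plaque-associated genes tested 2 were lower under the label FMN2-/-_APP, Clec7a by -2.68 (adjusted p = 0.0267), a receptor for fungal glucans, and the lectin Lgals3 by -1.07 (adjusted p = 0.0227). The microglia identity genes summed to 337 to 495 CPM and 380 to 500 CPM in the labelled groups. Their median log2 fold change was -0.17, with 4 of 13 above 0, against 0.01 over all genes. The median was -0.42 for the plaque-associated genes (2 of 14 above 0) and -0.11 for the complement and phagocytic partners (2 of 11). For the border macrophage genes it was -0.40 (0 of 6), for the signalling genes -0.01 (9 of 20) and for the oligodendrocyte genes 0.39 (4 of 4). The border macrophage sums were 8.34 to 32.9 and 7.63 to 28.9 CPM, with 0 of 6 called, and the choroid plexus sums 35.2 to 115 and 42.4 to 9068, with 0 of 5 called. Among the leukocyte, endothelial, astrocyte, oligodendrocyte and cortical neuron genes 0 were called, and of 8 granule cell genes C1ql2 was higher by 0.59. Their part in the Fcgr2b values was not tested.

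The position of the receptor genes near Fmn2 was examined with the other genes of that part of chromosome 1. The counts below include Fmn2 itself, which was among the genes called in the cross and at both ages of the Fmn2 line. Within 5 Mb of the Fmn2 start, 11 of 100 genes tested were called between the labelled cross groups, against 3 of 93 at 3 months and 3 of 81 at 8 months in the Fmn2 line. In the samples titled PFC, where Fmn2 differed by -0.01 on the log2 scale, 13 of 98 were called, and between the cross and the 3-month mice 24 were. Over all genes the shares were 0.774%, 0.0301%, 1.13%, 2.34% and 16.5% in these comparisons, in the order given. Within 250 kb of the 4 receptor genes on this chromosome, 3 of 27 tested were called in the cross. In the Fmn2 line 0 of 26 and 0 of 22 were. The counts were 5 of 29 in the samples titled PFC and 7 of 27 between the cross and the 3-month mice. Both windows include the receptor genes themselves. Fcer1g, Fcgr2b and Fcgr3 are among the calls in the samples titled PFC, and Fcgr3 is among those between the cross and the 3-month mice. The 3 genes of the cross, named after their values were seen, were Apoa2, Gm9929 and Adamts4, all higher under the label FMN2-/-_APP. Apoa2, an apolipoprotein gene, had 0.453 to 1.15 CPM there and was at 0 CPM in all mice under FMN2 +/+ APP except replicate 3, at 0.0405. It was also at 0.234 to 0.713 CPM in the samples titled PFC of both genotypes, and in the Fmn2 line at 0 CPM in all Fmn2+/+ mice of both ages and in all Fmn2-/- mice but 3-month replicate 4 (0.0366) and 8-month replicate 5 (0.19). Besides Fmn2, the calls within 5 Mb in the Fmn2 line were Catspere1 and Catspere2 at both ages. Their log2 fold changes were 8.30 and 2.12 at 3 months and 7.42 and 2.66 at 8 months. Between the labelled cross groups both were called too, at -3.54 and -2.15. The cause was not tested.

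**Figure D5:**
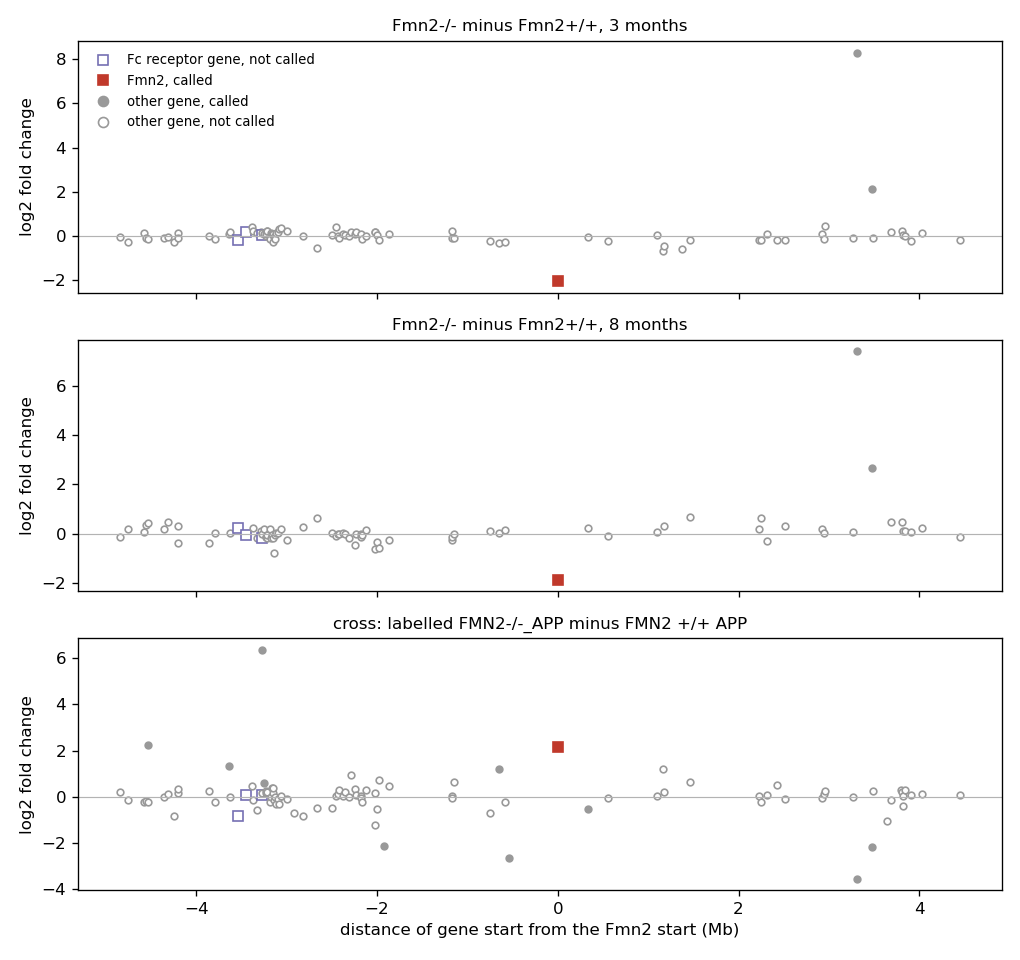
Log2 fold change (y axis) of each gene tested within 5 Mb of the Fmn2 start against the distance of its own start (x axis, Mb), in the 2 Fmn2 comparisons and between the labelled groups of the cross, with filled points for genes called. Fcer1g, Fcgr2b and Fcgr3 (open violet squares, 3.27 to 3.54 Mb before the Fmn2 start) are not called in any of the 3, and Fmn2 turns from -2.06 and -1.89 to 2.15. Fcgr4 was under the filter on low counts, so it was not tested and is not shown.

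In the Fmn2 line the question is whether loss of Fmn2 alone, or loss of Fmn2 with age, moved the receptors. At 3 months Fcer1g was at 5.76, 9.67, 7.58, 7.22 and 8.17 CPM in Fmn2+/+ mice and at 10.4, 9.67, 6.59, 6.23 and 6.85 in Fmn2-/- mice. Fcgr1 was at 2.27, 3.24, 3.70, 3.41 and 3.56 CPM in Fmn2+/+ mice and at 4.93, 6.16, 3.74, 3.10 and 3.49 in Fmn2-/- mice. For both genes the groups overlapped, with the 2 highest values of Fcgr1 in Fmn2-/- mice. Fcgr2b was at 4.92, 4.54, 5.16, 5.81 and 4.34 CPM in Fmn2+/+ mice and at 4.59, 5.45, 4.03, 3.60 and 4.09 in Fmn2-/- mice, which also overlapped. The log2 fold changes were 0.04 (SE 0.17) for Fcer1g, 0.38 (SE 0.20) for Fcgr1, -0.19 (SE 0.13) for Fcgr2b and 0.17 (SE 0.095) for Fcgr3, with adjusted p-values from 0.525 to 0.951. No receptor gene was called (0 of 4 tested with edgeR, 0 at an unadjusted p under 0.05, 0 with DESeq2), where 0.0301% of 16630 genes were. The Fmn2+/+ mice were all on lane 5 and all Fmn2-/- mice but replicate 1 on lane 6, and with lane in the fit 0 receptor genes were called as well.

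At 8 months Fcer1g was at 9.09, 6.82 and 9.08 CPM in Fmn2+/+ mice and at 6.62, 7.08, 8.20, 6.39 and 8.92 in Fmn2-/- mice. Fcgr3 was at 10.8, 9.24 and 13.4 CPM and at 10.8, 11.98, 11.2, 8.94 and 10.7. Fcgr2b was at 3.96, 3.94 and 4.71 CPM and at 4.81, 3.70, 4.20, 5.62 and 5.41. The groups overlapped in each of these genes and in Fcgr1, which lay between 3.48 and 5.17 CPM in Fmn2+/+ and 3.42 and 5.03 in Fmn2-/- mice. The log2 fold changes were -0.18 (SE 0.15) for Fcer1g, -0.02 (SE 0.19) for Fcgr1, 0.20 (SE 0.18) for Fcgr2b and -0.05 (SE 0.14) for Fcgr3, with adjusted p-values from 0.503 to 0.962. No receptor gene was called (0 of 4 tested with edgeR, 0 at an unadjusted p under 0.05, 0 with DESeq2), where 1.13% of 14665 genes were. Of the 8-month libraries 7 held between 6818809 and 11675280 reads and gave Fcgr2b 26 to 66 reads each. The intervals ran from -0.40 to 0.36 for Fcgr1 and from -0.15 to 0.56 for Fcgr2b. Fmn2-/- replicates 2 and 3 were as alike in their counts as repeat runs of one mouse in the cross (chi-square per degree of freedom 1.69, against 1.80 and 2.27), and with their counts summed as 1 mouse 0 receptor genes were called as well.

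The genotype effect did not differ detectably between the ages. The interaction, the effect at 8 months minus that at 3 months, was -0.23 (SE 0.25) for Fcer1g, -0.42 (SE 0.30) for Fcgr1, 0.38 (SE 0.22) for Fcgr2b and -0.24 (SE 0.17) for Fcgr3, with adjusted p-values from 0.296 to 0.62. Of 4 genes tested 0 were called with edgeR, 0 at an unadjusted p under 0.05 and 0 with DESeq2, where 3.73% of 17046 genes were called. Fcgr4 had at most 2 reads in each mouse of the line except 8-month Fmn2+/+ replicate 1, the deepest library, with 7. Of the signalling genes, the other Fc receptors and relatives, the microglia identity, plaque-associated, complement, border macrophage and leukocyte genes tested at either age 0 were called. The microglia identity genes had medians of 0.14 at 3 months and 0.16 at 8 months. Of the other lists Aqp4 was higher (0.46, adjusted p = 0.0459) and C1ql2 lower (-0.65, adjusted p = 0.0434) in Fmn2-/- mice at 8 months.

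Across the 46 mice the receptor genes varied together to different degrees. On the log2 CPM scale Fcer1g and Fcgr3 had the highest Pearson correlation (r = 0.886, n = 46), and Fcgr1 and Fcgr2b the lowest of the 4 well-counted genes (r = 0.598). After removal of the group means r ranged from 0.318 for Fcgr1 with Fcgr2b to 0.674 for Fcer1g with Fcgr3. These mice share lanes, tissue and the amyloid difference, so r is a description only. Of 15973 other genes those most like Fcgr3 were C1qb (r = 0.936), C1qc (0.935), Tyrobp (0.930), C1qa (0.927) and Trem2 (0.920), which encode the chains of complement C1q, an adaptor and the receptor that signals through it. Those most like Fcer1g were Fcgr3 (0.886), C1qa (0.884), Trem2 (0.883), Cd68 (0.879) and Ctss (0.878). Fcgr2b was most like Itgax (0.869), Cd52 (0.861), Cd68 (0.852), Slc15a3 (0.850) and Clec7a (0.850), of which Itgax, Cd68 and Clec7a are on the plaque-associated list. Fcgr1 was most like Ctss (0.792), Axl (0.760), Ncf1 (0.745), Ly86 (0.745) and Cd53 (0.742), and Fcgr4, at its low counts, most like Tlr2 (0.845), Ctss (0.797), Ly86 (0.797), H2-Ob (0.792) and Apobec1 (0.791).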

How the data were processed

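The deposited values are counts of reads per gene. Per the labels the libraries were made with the TruSeq RNA v2 kit, which keeps no strand. Per the study's methods, the authors mapped the reads with STAR to the mm10 genome, then assigned them to genes using HTSeq, and the build is also in the submitters' processing notes. Reads in several genes are lost in such counting. The 2 runs of 2 cross mice were summed. Of the 48709 identifiers, 48349 had an exon length in GENCODE M21. Each comparison was fitted with edgeR (version 4.0.16, R 4.3.3): TMM normalization, filterByExpr, quasi-likelihood test, Benjamini-Hochberg adjustment over all genes tested. Genes were called at an adjusted p under 0.05 if the log2 fold change was 0.25 or more in size (Fmn2 line) or 0.5 or more (amyloid mice). Levels are CPM with TMM over all mice; log2 CPM used a pseudocount of 0.5. Intervals are the estimate ± 1.96 SE. DESeq2 (1.42.0) and the other alternatives are given with their effect below. The fits were tested on simulated data.

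The members, the 13 gene lists and the rules were chosen with earlier results of these data known. Named were all members, Fmn2 and the transgene genes, up to 4 called genes of each list by size of change, the 5 genes most correlated with each member, and, outside that rule and after their values were seen, Syk, Inpp5d, Fcgrt and the 3 genes near the receptors. Catspere1 and Catspere2 were also named outside that rule, after their values were seen. Protein sequences were not used here, and some genes of the lists are not reported here by name. The labels do not say whether replicates were litter-mates, and p-values measure the spread between these mice. The labels' replicate numbers 1 to 9 recur between groups; after subtraction of group means, mice sharing a number had a mean r of 0.052 at 3 months, -0.036 at 8 months, 0.069 in the cross and 0.005 in the samples titled PFC, so the numbers were not taken to pair the mice. Fmn2-/- replicates 2 and 3 of 8 months had a chi-square per degree of freedom of 1.69 between their counts, where all others of the group gave 3.78 to 7.05, and were kept as 2 mice, with their sum as an alternative.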

Additional observations from a re-analysis of the deposited data

Results flagged for a closer look

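In 3-month-old Fmn2-/- mice, replicate 2 stood apart for Fcgr3, at 12.5 CPM against 10.1 in the next mouse of the group. Its gap was 0.812 of the range of the group, above the 95% critical value of Dixon's test (0.71). Of 35 combinations of a receptor gene and a group of 4 to 10 mice, 1 was flagged, and chance alone flags about 1 in 20.

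The amyloid effect in the samples titled PFC was larger than in the dentate gyrus cross, by a test of the difference itself, for Fcer1g (0.998 on the log2 scale), Fcgr1 (0.90), Fcgr2b (1.35) and Fcgr3 (0.55). Tissue title, age and lane differ between the experiments and cannot be told apart.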

How the results depend on the processing

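Of 496 refitted log2 fold changes of the receptor genes, 472 kept direction and call, 18 changed sign, 4 lost and 2 gained the call. In the samples titled PFC all 4 kept their calls in all 16 alternatives. The sign changes were in values near 0. At 3 months Fcer1g was at -0.0112 with a GC content and exon length offset and between -0.0782 and 0.129 with each mouse left out. At 8 months Fcgr1 was at 0.0394 with that offset and between -0.11 and 0.0935 with each mouse left out, and Fcgr3 at 0.0082 and between -0.138 and 0.0741, and with the replicate block at 0.0181. Between the labelled cross groups Fcgr1 was at 0.124 with the replicate block and 0.0316 with lane in the fit, and with each mouse left out Fcer1g was between -0.029 and 0.15 and Fcgr3 between -0.0459 and 0.135. Against the 3-month mice Fcgr2b was between -0.027 and 0.0931 with each mouse left out. The cause was not tested.

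Receptor genes called between the labelled cross groups were 1 with DESeq2 and 0 to 1 with each mouse left out. Against the 3-month mice they were 2 with DESeq2 and 2 without the low-count filter, where Fcgr4 is tested, and 0 to 1 with each mouse left out. The call of Fcgr3 was lost without labelled FMN2-/-_APP replicates 2 or 4 or FMN2 +/+ APP replicates 7 or 8 in turn, as given in the report.

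Over all genes, at 3 months 5 were called, 90 with DESeq2, 3 with RLE normalization, 14 without the filter, 2 with the replicate block, 3 with lane in the fit, 3 with the offset and 3 to 49 with each mouse left out. At 8 months 166 were called, 697 with DESeq2, 1124 without the filter, 4 with the replicate block, 3 with lane, 9 with the offset, 5 with Fmn2-/- replicates 2 and 3 summed and 4 to 3087 with each mouse left out (4 without Fmn2+/+ replicate 1, 3087 without replicate 2). For the interaction 635 were called, 1414 with DESeq2, 399 without the filter, 0 with the replicate block (on fewer mice), 33 with the offset, 227 with those replicates summed and 8 to 2791 with each mouse left out. In the cross 129 were called, 357 with DESeq2 and 73 to 171 with each mouse left out. The replicate block changed no receptor call. Fcgr4 had at most 21 reads in a mouse, and what depth limits was not tested.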
